A study of Mus musculus with 8 samples.

Results

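Guanylate-binding proteins (GBPs) are large interferon-induced GTPases of cell-autonomous defence, and the genes Gbp2, Gbp3, Gbp5, Gbp6, Gbp7, Gbp8 and Gbp9 were followed here in mouse dendritic cells. The members were the rows of the deposited expression table that carry one of these 7 names, and 6 of the 7 names were found among 25006 gene names. Gbp6 is not analysed here. Gbp4 and Gbp11 are family genes found beside them and are given for comparison.

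GBPs bind and hydrolyse GTP, assemble on the membranes of vacuoles that hold microbes, and in macrophages promote the release of microbial products into the cytosol, where inflammasomes sense them. Some members, Gbp2 and Gbp5 among them, carry a lipid anchor added by prenylation. Their genes are classical targets of interferon γ, through gamma-activated sites (GAS) and through IRF1, and also respond to type I interferon through interferon-stimulated response elements (ISRE). Type I interferons signal through the receptor IFNAR. CpG oligonucleotide activates the endosomal receptor TLR9, which switches on NF-κB and, in dendritic cells, interferon β.

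Dendritic cells were derived from C57BL/6 bone marrow by culture with GM-CSF (20 ng/ml) together with IL-4 (10 ng/ml), and their mRNA was sequenced. The first genotype, IFNAR;RelB-DBDB, lacks IFNAR and carries the RelB-DBDB alleles, per the series description, and the second, RelB-DBDB, carries the RelB-DBDB alleles with IFNAR intact. Both genotypes thus share the altered RelB, an NF-κB subunit, and the labels do not say what the alteration is. For each genotype there was a single control library, which carries the label 1 h, and single libraries of cells given CpG (ODN 1668) at 0.1 µM for 1, 3 or 8 h, making 8 libraries without replicates. No control was labelled 3 or 8 h, so longer culture and CpG cannot be told apart at those times. Which animals or cultures the libraries came from is not given in the sources used here. The study asked how RelB restrains inflammatory genes of the NF-κB pathway. The comparison made here sets the genotype difference in resting cells against the course after CpG.

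Ifnar1, the targeted receptor gene, stood at 86.3 CPM (its reads scaled to a common library total) in control cells and 102, 56.1 and 68.2 CPM at 1, 3 and 8 h of CpG in IFNAR;RelB-DBDB, against 127, 123, 102 and 125 CPM in RelB-DBDB. It was thus read in all 8 libraries, lower in IFNAR;RelB-DBDB in 4 of 4 conditions (-0.63 on the log2 scale, limma adjusted p = 0.034, a call that ended without any 1 of the control, 1 h or 3 h libraries, at 0.0534 to 0.189, and with no filter, at 0.0682). The table gives 1 value per gene, so whether reads fall in the deleted part of Ifnar1 cannot be seen from it. The libraries held 3711818 to 11977778 reads in IFNAR;RelB-DBDB and 6159951 to 37221530 reads in RelB-DBDB, and a floor of 3 reads, set as the limit for a count of 0, came to 0.0806 to 0.808 CPM. The RelB-DBDB library at 8 h was the deepest. It also held 6.26% mitochondrial reads, against 1.74% to 2.41% in the other 7 libraries, and its trimmed-mean (TMM) scaling factor was 0.78 where the others lay between 0.971 and 1.1. The cultures expressed dendritic cell markers at a summed 13520 to 15074 CPM in IFNAR;RelB-DBDB and 8314 to 13788 CPM in RelB-DBDB, with all 9 markers read. T and NK cell markers summed to 238 to 293 CPM in IFNAR;RelB-DBDB and 52.6 to 91.9 CPM in RelB-DBDB. Macrophage and monocyte markers summed to 863 to 1535 CPM in IFNAR;RelB-DBDB and 1049 to 1441 CPM in RelB-DBDB. Of 7 such markers tested, Mertk (-2.11, adjusted p = 0.0016) and Mrc1 (-1.41, adjusted p = 0.002) were lower and Ly6c2 (0.97, adjusted p = 0.0408) higher in IFNAR;RelB-DBDB by limma. Over all tested genes 1.66% were called lower and 4.59% higher. The median difference of the list by limma was -0.27, against 0.11 over all tested genes. Between single libraries it was -0.75 in control cells and 0.01 at 8 h, against 0.06 and 0.30 over all tested genes. In such bulk cultures, fewer cells of a type and less RNA per cell cannot be told apart.

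The members lie in clusters on 2 chromosomes of mm10 (GENCODE release M21). On the plus strand of chromosome 3 stand Gbp5 (142493978 to 142522344), Gbp7 (142530342 to 142550149), Gbp3 (142560026 to 142573209) and Gbp2 (142620602 to 142638008). On the minus strand of chromosome 5 stand Gbp8 (105014150 to 105139540) and Gbp9 (105077630 to 105139539), whose annotated spans overlap each other and that of Gbp4 (105115767 to 105139586). The genes are similar in sequence, so reads can be shared. Of the 50-base windows of the longest coding transcript, 0.898% in Gbp5, 2.07% in Gbp2, 4.79% in Gbp3, 9.56% in Gbp9, 12.8% in Gbp7 and 21.2% in Gbp8 also occurred in a transcript of another gene. How such reads were assigned is not given in the sources used here, so the value of Gbp8 is the least certain by this measure. For Gbp6 the share was 90.2%.

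RefSeq promoters (GRCm38.p6) were matched for Gbp2, Gbp3, Gbp5 and Gbp7, 4 of the 7 members. The 250 bases before the annotated start are shown for these because matches to elements known from interferon responses lie there. Capitals mark matches to the ISRE core, the GAS or the κB motif. For Gbp3, the first of 2 annotated starts is shown, and the window at the second start held no match.
Gbp2: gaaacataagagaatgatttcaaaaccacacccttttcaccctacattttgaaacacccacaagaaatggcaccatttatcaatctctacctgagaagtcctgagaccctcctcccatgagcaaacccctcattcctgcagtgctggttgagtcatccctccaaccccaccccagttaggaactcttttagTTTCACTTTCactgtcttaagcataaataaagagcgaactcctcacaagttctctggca
Gbp3: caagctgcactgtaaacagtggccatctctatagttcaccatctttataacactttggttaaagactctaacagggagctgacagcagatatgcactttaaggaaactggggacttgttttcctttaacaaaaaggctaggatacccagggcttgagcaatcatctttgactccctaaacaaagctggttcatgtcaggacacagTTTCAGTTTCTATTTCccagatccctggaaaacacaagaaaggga
Gbp5: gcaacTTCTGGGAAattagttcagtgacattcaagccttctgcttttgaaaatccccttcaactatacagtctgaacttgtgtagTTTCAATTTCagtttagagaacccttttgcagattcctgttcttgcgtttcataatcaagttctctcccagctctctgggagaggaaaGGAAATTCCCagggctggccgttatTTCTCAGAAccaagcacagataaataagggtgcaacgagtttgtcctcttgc
Gbp7: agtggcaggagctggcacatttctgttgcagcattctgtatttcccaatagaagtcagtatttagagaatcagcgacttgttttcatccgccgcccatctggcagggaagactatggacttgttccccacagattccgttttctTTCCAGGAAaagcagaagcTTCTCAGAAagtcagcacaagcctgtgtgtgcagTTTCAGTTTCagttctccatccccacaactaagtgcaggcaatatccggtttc
The windows are chr3:142620413-142620662 for Gbp2, chr3:142559794-142560043 for Gbp3, chr3:142496684-142496933 for Gbp5 and chr3:142530086-142530335 for Gbp7, all on the plus strand.

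The search covered both strands and the 250 bases before plus the 50 bases after each start. The ISRE core was spelled GAAANNGAAA, the GAS TTCNNNGAA, and the κB motif was taken by its name. All 4 genes held the ISRE core, which 3.44% of 32851 such promoters hold, and in each it was read on the strand opposite to the gene. It lay with 49 bases between it and the start in Gbp2, 43 in Gbp7 and 155 in Gbp5. Gbp3 held 2 overlapping copies, with 35 and 29 bases to the start. The GAS, present in 8.3% of promoters, occurred at 2 places in Gbp5 and at 2 places in Gbp7. Gbp5 alone of the 4 held the κB motif, present in 4.51% of promoters. These are matches of letters, not measured binding.

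**Figure D1:**
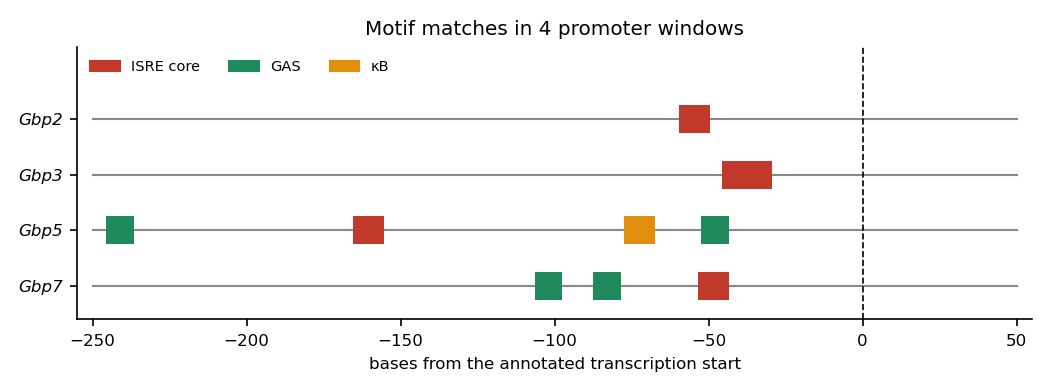
Motif matches in the promoter windows of Gbp2, Gbp3 (first start), Gbp5 and Gbp7; the horizontal axis is the distance in bases from the annotated start (dashed line) and coloured boxes are matches to the ISRE core (red), the GAS (green) and the κB motif (orange). Each gene has an ISRE core upstream of its start, and Gbp5 and Gbp7 have 2 GAS matches each.

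In resting cells all 6 members were higher in IFNAR;RelB-DBDB, the genotype without the type I interferon receptor. The ratio of IFNAR;RelB-DBDB to RelB-DBDB in control cells lay between 2.29 and 10.8, with a median of 2.99. All 6 were at least 2-fold higher, against 2.7% of the 12297 genes tested, and for all 6 the exact 95% interval, which covers counting error only, lay above 1. On the log2(CPM + 1) scale the median difference of the members was 1.54, against 0.06 over all tested genes. These are differences between 2 single libraries and have no replicate check.

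Gbp2, which coats vacuoles of intracellular parasites in mouse cells, was the most abundant member. In IFNAR;RelB-DBDB its level was 1151, 1211, 1663 and 1851 CPM in control cells and at 1, 3 and 8 h of CpG, against 267.1, 284.3, 486.6 and 1831 CPM in RelB-DBDB. The IFNAR;RelB-DBDB libraries were higher up to 3 h, and at 8 h the genotypes met. The ratio in control cells was 4.31 (95% interval 4.14 to 4.49), and 23 of the tested genes had a larger log2 difference there. At 8 h the ratio was 1.01 (0.986 to 1.04), and with TMM scaling it was 0.766, below 1.

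Gbp5, which promotes inflammasome assembly in mouse macrophages, was the rarest member and had the widest resting ratio. It stood at 17.5, 19.4, 34.6 and 28.0 CPM in IFNAR;RelB-DBDB, against 1.62, 1.14, 3.31 and 11.4 CPM in RelB-DBDB. All 4 IFNAR;RelB-DBDB libraries were above all 4 RelB-DBDB libraries, a pattern that 7.98% of tested genes showed. The ratio in control cells was 10.8 (6.61 to 19.0), and only 1 tested gene had a larger log2 difference there. It was 17.0 (8.13 to 42.8) at 1 h, 10.5 (7.06 to 16.1) at 3 h and 2.47 (1.97 to 3.06) at 8 h.

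Gbp3 stood at 91.4, 92.3, 153 and 163 CPM in IFNAR;RelB-DBDB, against 39.9, 44.6, 81.2 and 375 CPM in RelB-DBDB. Its ratio was 2.29 (2.04 to 2.57) in control cells and 0.434 (0.400 to 0.471) at 8 h, so the order of the genotypes turned between 3 and 8 h. Gbp7, linked in mouse to oxidative and autophagic defence, stood at 82.4, 80.6, 120.2 and 85.1 CPM in IFNAR;RelB-DBDB, against 25.5, 27.4, 56.5 and 125 CPM in RelB-DBDB. Its ratio was 3.23 (2.82 to 3.71) in control cells and 0.679 (0.604 to 0.761) at 8 h. In both genes the RelB-DBDB 8 h library was the highest of the 8, and up to 3 h every IFNAR;RelB-DBDB library was above the RelB-DBDB library of the same condition.

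Gbp8 stood at 53.0, 59.8, 69.9 and 60.1 CPM in IFNAR;RelB-DBDB, against 23.1, 27.6, 29.7 and 36.5 CPM in RelB-DBDB. Its ratio was 2.29 (1.98 to 2.67) in control cells and 1.65 (1.42 to 1.90) at 8 h, and its 4 IFNAR;RelB-DBDB libraries were all above the 4 RelB-DBDB libraries. Gbp9, its neighbour, stood at 66.0, 68.1, 72.1 and 42.3 CPM in IFNAR;RelB-DBDB, against 24.1, 24.2, 48.6 and 132 CPM in RelB-DBDB. Its ratio was 2.74 (2.38 to 3.17) in control cells and 0.321 (0.272 to 0.376) at 8 h. Of the 6 members, Gbp8 varied least over the course and Gbp9 showed the widest turn of its ratio.

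**Figure D2:**
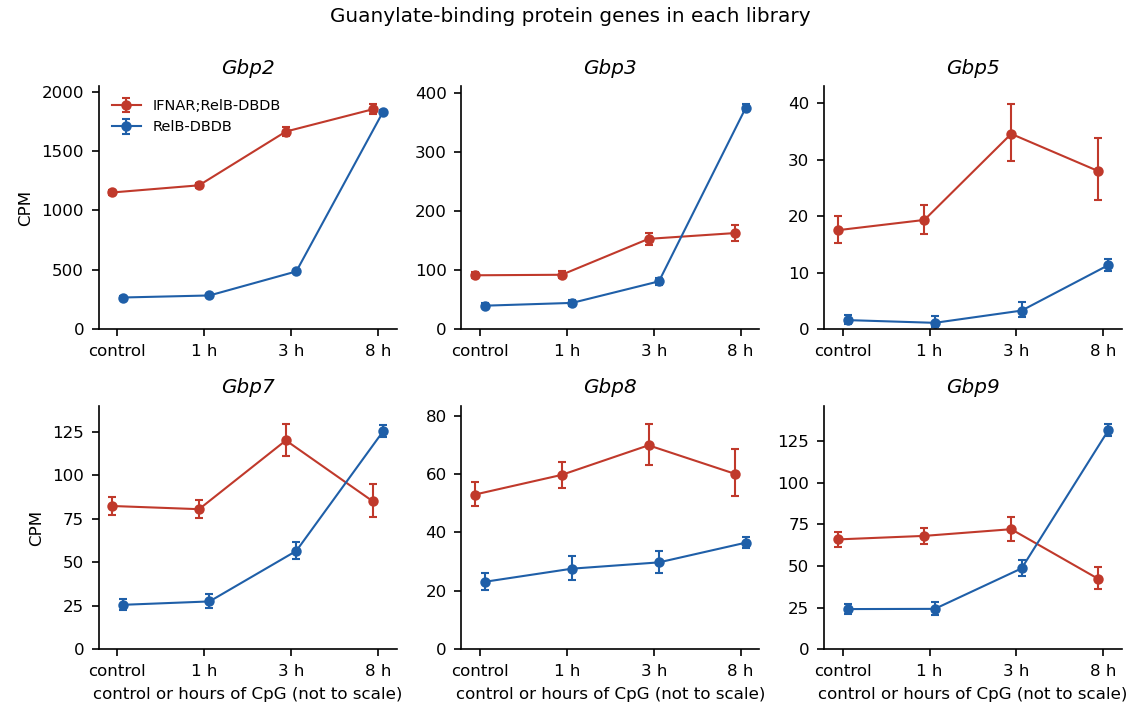
CPM of each member in each library, with exact 95% intervals of the read count (counting error only), at control and after 1, 3 and 8 h of CpG for IFNAR;RelB-DBDB (red) and RelB-DBDB (blue); the time axis is not to scale and each panel has its own vertical axis from 0. In all 6 panels the red line lies above the blue one up to 3 h, and in Gbp3, Gbp7 and Gbp9 the lines have crossed at 8 h.

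Levels were also set per kilobase of the longest coding transcript to order the members. In IFNAR;RelB-DBDB control cells this gave 457 CPM per kb for Gbp2, 34.1 for Gbp3, 21.6 for Gbp8, 15.1 for Gbp9, 14.7 for Gbp7 and 5.74 for Gbp5. In RelB-DBDB control cells it gave 106 for Gbp2, 14.9 for Gbp3, 9.40 for Gbp8, 5.49 for Gbp9, 4.54 for Gbp7 and 0.529 for Gbp5. The order was the same in both, and Gbp9 and Gbp7 were near each other in IFNAR;RelB-DBDB. At 8 h the order below Gbp2 differed. In IFNAR;RelB-DBDB it was Gbp3 (60.8), Gbp8 (24.4), Gbp7 (15.2), Gbp9 (9.65) and Gbp5 (9.17), and in RelB-DBDB it was Gbp3 (139.9), Gbp9 (30.1), Gbp7 (22.3), Gbp8 (14.8) and Gbp5 (3.72). Summed over the 6 members, IFNAR;RelB-DBDB held 1461, 1531, 2113 and 2229 CPM and RelB-DBDB held 381, 409, 706 and 2511 CPM. Gbp2 made up 78.7% to 83.0% of that sum in IFNAR;RelB-DBDB and 68.9% to 72.9% in RelB-DBDB.

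The family gene Gbp4 stood at 152, 179.7, 347 and 238 CPM in IFNAR;RelB-DBDB, against 34.9, 34.4, 166 and 218 CPM in RelB-DBDB. Its resting ratio was 4.36 (3.89 to 4.89), close in size to that of Gbp2, and its ratio at 8 h was 1.09 (1.02 to 1.17), or 0.827 with TMM scaling. Gbp11, annotated as a polymorphic pseudogene, was read at no more than 1.02 CPM in any library and did not enter the tests.

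Over all 4 conditions, limma tested the genotype difference on log2(CPM + 1) of all genes, with genotype and condition as additive terms. Gbp2, Gbp5 and Gbp8 were higher in IFNAR;RelB-DBDB in 4 of 4 conditions, a pattern shown by 25.9% of tested genes. For Gbp2 the 8 h ratio was only 1.01 (0.986 to 1.04), and with TMM scaling it was 0.766. Gbp5 (2.59 ± 0.329, SE, adjusted p = 0.00635), Gbp8 (1.04 ± 0.126, adjusted p = 0.00539) and Gbp2 (1.49 ± 0.335, adjusted p = 0.0472) were higher in IFNAR;RelB-DBDB by limma. These are 3 of 6 members, against 4.59% of all tested genes called higher. Gbp7 (0.92, adjusted p = 0.174), Gbp3 (0.48, adjusted p = 0.48) and Gbp9 (0.45, adjusted p = 0.593) were higher in 3 of 4 conditions and did not pass by limma. The median of the 6 differences was 0.98, against 0.11 over all tested genes, and Gbp4 stood at 1.41 (adjusted p = 0.0605). The limma p-values rest on the spread of these 8 libraries about the additive model, not on repeated cultures.

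These calls changed with a library left out, and calls over all genes changed with them. Of the 12297 tested genes, 565 were called higher with all libraries, but 89 or 90 without a 3 h library. The count was 183 or 185 without a control and 230 or 232 without a 1 h library. Over the 8 such fits the difference ran from 2.37 to 3.04 for Gbp5 and from 0.98 to 1.15 for Gbp8. The Gbp5 and Gbp8 calls ended without the IFNAR;RelB-DBDB 3 h library (limma adjusted p = 0.0771 and 0.0685) or the RelB-DBDB 3 h library (0.0762 and 0.0661), and held without any other. The Gbp2 call held only without 1 of the 8 h libraries. It ended when a control (0.167), a 1 h (0.166) or a 3 h library (0.215) of either genotype was left out, and also with TMM scaling (0.106), with no filter (0.117) and by limma-voom (0.0512). Without either 8 h library all 6 members passed, but calls rose over all genes too. In those fits 1304 or 1331 of the 12297 tested genes were called higher, against 565 with all libraries.

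After CpG the members stood near control at 1 h, above it at 3 h in both genotypes, and farthest above it in RelB-DBDB at 8 h. At 1 h the fold against control lay between 0.978 and 1.13 in IFNAR;RelB-DBDB and between 0.703 and 1.19 in RelB-DBDB. The lowest of these was Gbp5 in RelB-DBDB, whose interval of 0.246 to 1.78 spans 1. At 3 h the fold lay between 1.09 and 1.97 in IFNAR;RelB-DBDB and between 1.29 and 2.22 in RelB-DBDB, and all 6 members were above control in both. At least 2-fold higher at 3 h on the log2(CPM + 1) scale were 0 of 6 members in IFNAR;RelB-DBDB, against 2.86% of tested genes, and 2 of 6 in RelB-DBDB (Gbp3 and Gbp7), against 4.26%. Gbp5 (0.72) and Gbp9 (0.98) in RelB-DBDB were under 1 on that scale, with CPM folds of 2.04 (1.09 to 3.97) and 2.02 (1.72 to 2.37).

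At 8 h the folds against control were small in IFNAR;RelB-DBDB and larger in RelB-DBDB for every member. In IFNAR;RelB-DBDB the fold was 1.78 (1.61 to 1.97) for Gbp3, 1.61 (1.56 to 1.66) for Gbp2, 1.60 (1.25 to 2.03) for Gbp5, 1.13 (0.968 to 1.32) for Gbp8, 1.03 (0.907 to 1.17) for Gbp7 and 0.641 (0.537 to 0.762) for Gbp9. In RelB-DBDB it was 9.39 (8.53 to 10.4) for Gbp3, 7.03 (4.34 to 12.2) for Gbp5, 6.85 (6.60 to 7.12) for Gbp2, 5.47 (4.82 to 6.24) for Gbp9, 4.92 (4.35 to 5.59) for Gbp7 and 1.58 (1.38 to 1.82) for Gbp8. At least 2-fold higher on the log2(CPM + 1) scale were 0 of 6 members in IFNAR;RelB-DBDB, against 4.24% of tested genes, and 5 of 6 in RelB-DBDB, against 6.9% of tested genes. With TMM scaling the folds at 8 h in RelB-DBDB were higher, 9.14 for Gbp2 and 12.5 for Gbp3, and Gbp8 reached 2.11. The RelB-DBDB 8 h values come from the library with 6.26% mitochondrial reads, and the part of that in these folds was not tested.

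Between 3 and 8 h the courses ran in different directions for some members. In IFNAR;RelB-DBDB, Gbp2 reached 1.11 times its 3 h level, while Gbp7 stood at 0.708 times (0.618 to 0.811) and Gbp9 at 0.587 times (0.484 to 0.707). Gbp5 at 0.810 times (0.631 to 1.03) and Gbp8 at 0.859 times (0.725 to 1.02) had intervals that span 1 there. In RelB-DBDB, Gbp3 reached 4.62 times, Gbp2 3.76 times, Gbp9 2.71 times, Gbp7 2.22 times and Gbp8 1.23 times its 3 h level.

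In the limma test of CpG over both genotypes, Gbp3 (2.01 ± 0.531, adjusted p = 0.0385) and Gbp2 (1.73 ± 0.474, adjusted p = 0.0425) rose at 8 h. These are 2 of 6 members, against 6.51% of tested genes called higher at 8 h. Gbp5 (1.44, adjusted p = 0.0649), Gbp7 (1.15, 0.123), Gbp8 (0.41, 0.133) and Gbp9 (0.89, 0.354) did not pass by limma, nor did Gbp4 (1.63, 0.0524). The median of the 6 changes was 1.30, against -0.23 over all tested genes. At 3 h 0 of 6 passed by limma (adjusted p from 0.253 to 0.659, changes from 0.37 to 0.87), against 3.64% of tested genes called higher, and at 1 h 0 of 6, against 0.0651%. No member had an unadjusted limma p under 0.05 at 1 or 3 h, against 177 and 3002 of the 12297 tested genes. Likewise limma-voom called 0 members at both times, against 11 and 941 tested genes in either direction.

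The 8 h calls also changed with a library left out. Calls over all genes fell as well, from 801 higher with all libraries to 580 or 582 without a 1 h library. They fell to 488 or 489 without a 3 h library. Both ended without the IFNAR;RelB-DBDB control (limma adjusted p = 0.0862 for Gbp2 and 0.0793 for Gbp3), the RelB-DBDB control (0.303 and 0.28), the IFNAR;RelB-DBDB 1 h library (0.0531 and 0.0512), the RelB-DBDB 1 h library (0.0533 and 0.0511), the IFNAR;RelB-DBDB 3 h library (0.0992 and 0.0904) or the RelB-DBDB 3 h library (0.0991 and 0.0906). With no filter both missed the threshold (0.0972 and 0.0862), and with TMM scaling Gbp2 did (0.0516). Without an 8 h library the 8 h comparison rests on a single library at that time, so its calls are not given here. At 3 h, 5 members, all but Gbp9, passed without either 8 h library. In those fits 1246 or 1249 of the 12297 tested genes were called higher at 3 h, against 448 with all libraries.

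The resting difference and the course after CpG were then set against each other. The members were higher in IFNAR;RelB-DBDB at 1 h too, with ratios from 2.07 to 17.0, and at 3 h, with ratios from 1.48 to 10.5. At least 2-fold higher on the log2(CPM + 1) scale were 6 of 6 at 1 h, against 3.37% of tested genes, and 4 of 6 at 3 h, against 3.01%. At 8 h only Gbp5 was at least 2-fold higher, against 12.8% of tested genes, and Gbp3 and Gbp9 were at least 2-fold lower, against 3.5%. The intervals at 8 h lay above 1 for Gbp5 and Gbp8 and below 1 for Gbp3, Gbp7 and Gbp9. Of the tested genes, 332 were at least 2-fold higher in IFNAR;RelB-DBDB at rest, all 6 members among them. Of those 332, 46 (0.374% of all tested genes) were lower there at 8 h by any amount, Gbp3, Gbp7 and Gbp9 among them. The log2 difference at 8 h was below that in control cells for 6 of 6 members, against 34.5% of tested genes, and at least 1 below it for 5 of 6 (all but Gbp8), against 4.38%. These 2 shares are over all tested genes, not over genes with a resting difference as large. With TMM scaling, which gives the RelB-DBDB 8 h library a factor of 0.78, the 8 h ratio was 1.87 for Gbp5, under 2-fold, and 0.766 for Gbp2, below 1, so these counts depend on the scaling.

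**Figure D3:**
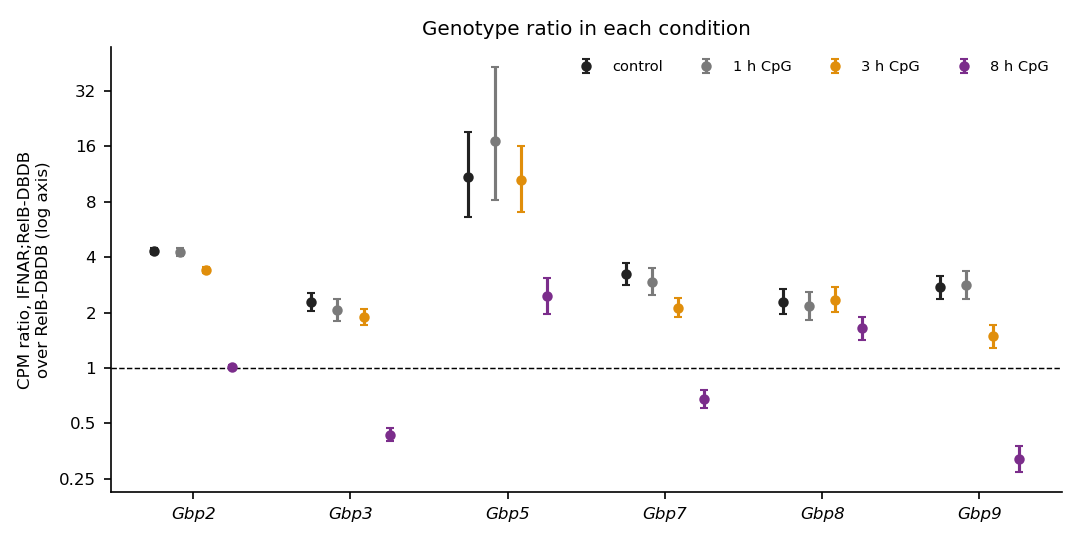
Ratio of CPM in IFNAR;RelB-DBDB over RelB-DBDB for each member in control cells and at 1, 3 and 8 h of CpG, on a log axis, with exact 95% intervals (counting error only); the dashed line marks equal levels. The control, 1 h and 3 h points lie above 1 for every member, and each member's 8 h point is its lowest, at 0.321 for Gbp9 and 2.47 for Gbp5.

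The late-phase test asked whether the genotype difference at 3 and 8 h departed from that in control cells and at 1 h. All 6 members had a lower genotype difference in the late phase, at -1.96 for Gbp9, -1.33 for Gbp7, -1.25 for Gbp3, -1.20 for Gbp2, -0.90 for Gbp5 and -0.17 for Gbp8 on the log2(CPM + 1) scale. The median was -1.22, against 0.09 over all tested genes. None passed by limma (adjusted p from 0.639 to 0.82), and neither did any of the 12297 genes (0%), with 874 at an unadjusted p under 0.05. By limma-voom the count was 0 as well, with 984 at an unadjusted p under 0.05. Among the members, 2 (Gbp7 and Gbp9) had an unadjusted limma p under 0.05, and 3 by limma-voom. Gbp4 stood at -1.63 (limma adjusted p = 0.505). The test had 2 residual degrees of freedom. Without 1 library of a condition, the other library of that condition is fitted exactly, so leaving out either gives the same value. The 8 such fits thus give no more than 1 separate value per condition, on 1 residual degree of freedom. Their p-values rest mostly on the variance pooled over all genes. For Gbp9 the value was -3.05 without either 3 h library and -0.88 without either 8 h library. Without the IFNAR;RelB-DBDB or the RelB-DBDB 3 h library all 6 members passed by limma, as did 5632 or 5641 of the 12297 tested genes. Without either 8 h library the values of Gbp5 and Gbp8 turned to 0.01 and 0.08.

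The closest relatives by function, the immunity-related GTPases (IRGs), which act with GBPs on pathogen vacuoles, were followed as a list of 13, of which 12 were tested. At rest 9 of 12 were at least 2-fold higher in IFNAR;RelB-DBDB, against 2.7% of tested genes, with a median log2 difference of 1.71. At 8 h 10 of 12 were at least 2-fold lower, against 3.5%, with a median of -1.54. At 8 h 0 of 12 stood at least 2-fold above control in IFNAR;RelB-DBDB (median log2 change -0.43), against 4.24% of tested genes, and 12 of 12 in RelB-DBDB (median 2.81), against 6.9%. By limma 0 of 12 passed in each of the CpG, genotype and late-phase comparisons, and likewise 0 by limma-voom. At an unadjusted limma p under 0.05 stood 11 of 12 in the late phase, against 874 of 12297 tested genes. In the genotype comparison 2 of 12 did, against 2759 tested genes, and at each CpG time 0 of 12 did. Over all tested genes the CpG counts were 177 at 1 h, 3002 at 3 h and 4940 at 8 h. The IRGs with the largest late-phase values were Gm4951 (-3.58, adjusted p = 0.395) and Iigp1 (-3.33, adjusted p = 0.639) by limma. With a library left out, which leaves 1 residual degree of freedom, their values ran from -4.67 to -2.48 and from -4.80 to -1.87. Iigp1 stood at 118, 118, 151 and 47.1 CPM in IFNAR;RelB-DBDB, against 18.5, 11.5, 71.8 and 175 CPM in RelB-DBDB.

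Irf7 and Isg15, known chiefly as type I interferon genes, did not share the resting difference. Irf7, a factor that amplifies type I interferon, stood at 7.01, 7.05, 4.37 and 2.42 CPM in IFNAR;RelB-DBDB, against 8.75, 7.47, 33.3 and 290.0 CPM in RelB-DBDB. Isg15, which encodes an antiviral modifier related to ubiquitin, stood at 9.10, 10.1, 15.7 and 23.7 CPM in IFNAR;RelB-DBDB, against 10.5, 8.93, 78.3 and 397 CPM in RelB-DBDB. In control cells neither gene differed by 2-fold, whereas each member did.

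**Figure D4:**
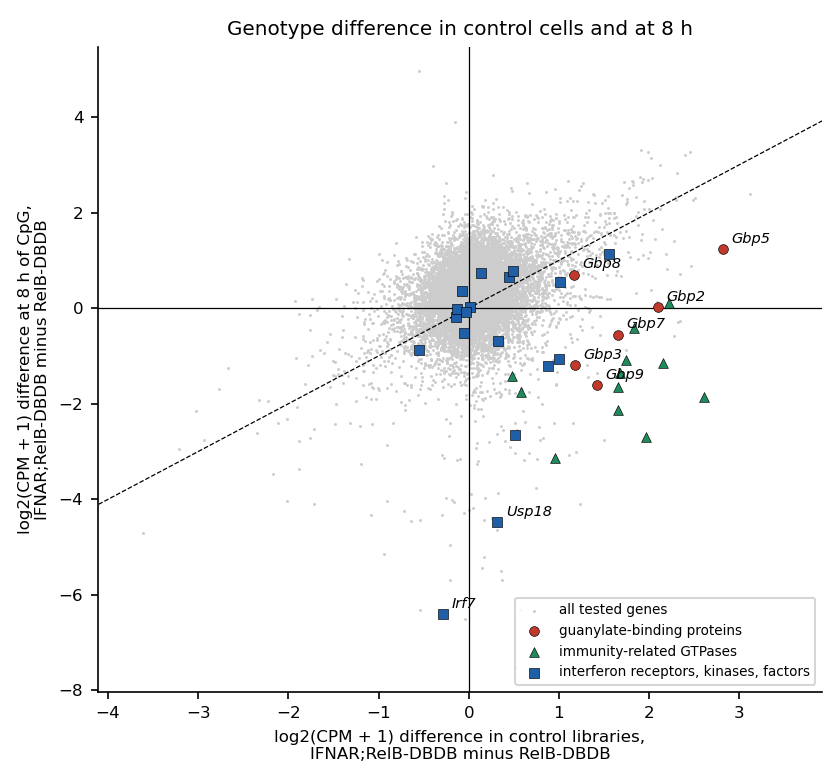
Each point is a gene; the horizontal axis is the difference in log2(CPM + 1), IFNAR;RelB-DBDB minus RelB-DBDB, in control libraries and the vertical axis is the same difference at 8 h of CpG, with the dashed line marking equality. The 6 members (red circles) and 12 IRGs (green triangles) lie to the right of 0 and below the dashed line, Irf7 lies near 0 at rest and far below 0 at 8 h, and all tested genes are grey.

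Among 18 interferon receptors, kinases and factors, 3 were higher (Socs1, Irf1 and Tyk2) and 1 lower (Ifnar1) in IFNAR;RelB-DBDB by limma, against 4.59% and 1.66% of tested genes. In the late phase 0 of the 18 passed by limma or limma-voom, with 8 at an unadjusted p under 0.05 by either. Over the 12297 tested genes that number was 874 by limma and 984 by limma-voom. Irf1, a factor that binds GBP promoters, stood at 271, 405, 349 and 296 CPM in IFNAR;RelB-DBDB, against 134, 176, 279 and 201 CPM in RelB-DBDB (0.77, adjusted p = 0.0336). Socs1, an inhibitor of interferon signalling (0.93, adjusted p = 0.0466), and the kinase gene Tyk2 (0.50, adjusted p = 0.0239) were higher too by limma. Each of the 3 calls ended with TMM scaling (adjusted p from 0.0658 to 0.1), those of Irf1 (0.0799) and Socs1 (0.101) with no filter, and each without any 1 of the control, 1 h or 3 h libraries (adjusted p from 0.0677 to 0.172).

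Of the same 18 genes, Irf8 rose and Ifngr1 fell after CpG by limma, at 3 h (3.64% of tested genes rose and 3.87% fell) and at 8 h (6.51% and 15.1%). Irf8, a factor of dendritic cell development, changed by 1.03 at 3 h (adjusted p = 0.00782) and 0.83 at 8 h (0.00831). Ifngr1, a chain of the interferon γ receptor, changed by -0.92 at 3 h (adjusted p = 0.0429) and -1.28 at 8 h (0.00794). At 8 h the Irf8 call ended without the IFNAR;RelB-DBDB control (0.0914) or the RelB-DBDB control (0.0971), and the Ifngr1 call without the RelB-DBDB control (0.111). At 3 h the Irf8 call ended without either control or either 3 h library (0.112 to 0.142), and the Ifngr1 call without any of the control, 1 h and 3 h libraries (0.07 to 0.416) and with no filter (0.0833).

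Of the interferon genes, 2 of 10 passed the filter. Ifng, which encodes interferon γ, was higher in IFNAR;RelB-DBDB (1.98 ± 0.277, adjusted p = 0.00898 by limma). It stood at 7.68, 9.42, 9.65 and 11.3 CPM in IFNAR;RelB-DBDB, against 3.04, 2.27, 0.912 and 0.940 CPM in RelB-DBDB, so all 4 libraries of the first genotype were above all 4 of the second. That call ended without the IFNAR;RelB-DBDB 3 h library (0.0858) or the RelB-DBDB 3 h library (0.0859). T and NK cell markers moved with it, since 8 of 10 tested markers were higher in IFNAR;RelB-DBDB by limma, against 4.59% of tested genes, with a median of 1.87, against 0.11 over all tested genes. All 12 markers of that list were in the table, and Ncr1 was at 0 in every IFNAR;RelB-DBDB library. B cell markers summed to 35.0 to 49.9 CPM in IFNAR;RelB-DBDB and 20.9 to 22.3 CPM in RelB-DBDB, and stromal markers to 5.39 to 6.74 CPM in IFNAR;RelB-DBDB and 1.33 to 2.28 CPM in RelB-DBDB. The part of Ifng, of these other cells and of the macrophage markers Mertk, Mrc1 and Ly6c2 in the resting difference of the GBP genes was not tested.

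Ifnb1, which encodes interferon β, rose after CpG in the model of both genotypes, by 1.00 at 3 h (adjusted p = 0.0435) and 1.44 at 8 h (adjusted p = 0.00697) by limma. It was read at 0, 0.17, 1.09 and 2.16 CPM in IFNAR;RelB-DBDB, against 0, 0, 0.912 and 1.34 CPM in RelB-DBDB, that is on no more than 50 reads in a library. Its fitted changes rest on control libraries at 0 and depend on the constant of 1. The 8 h call ended without the IFNAR;RelB-DBDB control (0.0767) or the RelB-DBDB control (0.0647). The 3 h call ended without any of the control, 1 h or 3 h libraries (0.0878 to 0.311) and with a pseudocount of 5 (0.0981).

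**Figure D5:**
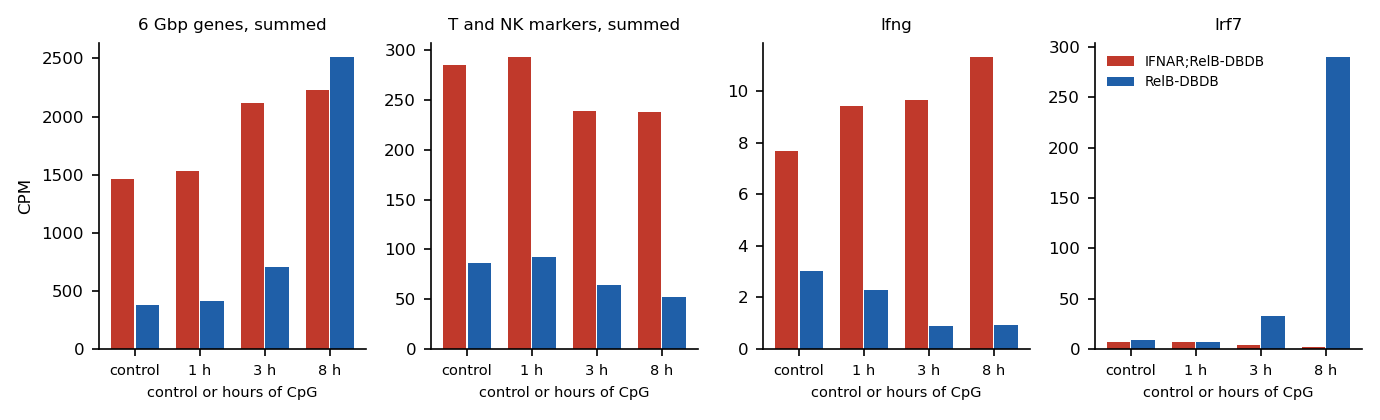
Bars show CPM in each library for the sum of the 6 GBP genes, the sum of the 12 T and NK cell markers, Ifng and Irf7, in control cells and at 1, 3 and 8 h of CpG, with IFNAR;RelB-DBDB in red left of RelB-DBDB in blue. The GBP sum is higher in IFNAR;RelB-DBDB up to 3 h, the marker sum and Ifng are higher there in 4 of 4 conditions, and Irf7 reaches 290.0 CPM in RelB-DBDB at 8 h.

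Among 12 inflammasome and pyroptosis genes, which lie downstream of GBP action, 2 were higher and 1 lower in IFNAR;RelB-DBDB by limma, against 4.59% and 1.66% of tested genes. Casp4, which encodes the mouse caspase-11 that senses lipopolysaccharide, stood at 9.43, 14.8, 22.8 and 23.4 CPM in IFNAR;RelB-DBDB, against 41.3, 40.4, 70.1 and 121 CPM in RelB-DBDB. Its difference of -1.83 (adjusted p = 0.00256) held with each of the 8 libraries left out in turn and ran against that of all 6 GBP members. Nlrp1b, an inflammasome sensor (1.16, adjusted p = 0.0259), and Il1b (1.13, adjusted p = 0.00539) were higher. The Nlrp1b call ended without any of the control, 1 h or 3 h libraries (0.0563 to 0.124) and with no filter (0.069), and the Il1b call without either 3 h library (0.0615 to 0.0619). After CpG 5 of the 12 rose at 3 h, against 3.64% of tested genes, and at 8 h 7 rose and 2 fell, against 6.51% and 15.1%. Of these, Nlrp3, the sensor of the best known inflammasome, changed by 1.78 at 3 h (adjusted p = 0.00296), a call that ended without the IFNAR;RelB-DBDB 3 h (0.0664) or the RelB-DBDB 3 h library (0.0997). Il1b, the cytokine that inflammasomes mature, was the only one of the 12 called at 1 h (3.04, adjusted p = 0.00231 by limma). Mefv, which encodes pyrin (2.30 at 3 h, adjusted p = 0.0108), Nlrc4 (0.98 at 3 h, 0.0315) and Casp4 (1.38 at 8 h, 0.0109) rose by limma, and Nlrp1b fell (-1.44 at 8 h, 0.02). Leaving out a control library of either genotype ended each of these 4 calls (adjusted p from 0.0667 to 0.29), and a 3 h library of either genotype ended all but that of Casp4 (0.0565 to 0.257). The Nlrc4 call also ended without either 1 h library (0.082 to 0.0823) and with no filter (0.0766), and the Nlrp1b call at 8 h with no filter (0.0516).

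Of 14 ubiquitin-like conjugation and ubiquitin genes that act with GBP coats, Sqstm1, an adaptor of autophagy, was the only one called by limma at 3 h (1.10, adjusted p = 0.00872), against 3.64% of tested genes called higher, and between genotypes (-0.50, adjusted p = 0.0422), against 1.66% called lower. By limma-voom 2 of the 14 were called between genotypes, against 765 of the 12297 tested genes in either direction. The 3 h call ended without either control or either 3 h library (0.0771 to 0.151), and the genotype call without any of the control, 1 h or 3 h libraries (0.118 to 0.2) and with no filter (0.136). At 8 h 3 of the 14 fell, against 15.1% of tested genes, which were Map1lc3a (-1.19, adjusted p = 0.0204), Atg7 (-0.87, 0.0339) and Atg16l1 (-0.62, 0.04) of the autophagy machinery, by limma. Each of the 3 calls ended without either control or either 3 h library (0.0567 to 0.348), and those of Atg7 and Atg16l1 also without either 1 h library (0.0605 to 0.087) and with no filter (0.0674 and 0.06), that of Atg16l1 also with TMM scaling (0.0932). Of 6 genes for prenylation and the processing that follows it, limma called 1, Icmt, lower at 8 h (-1.06, adjusted p = 0.0294), against 15.1% of tested genes. By limma-voom 3 were called, against 4316 of the 12297 tested genes in either direction. The limma call ended without any of the control, 1 h or 3 h libraries (0.052 to 0.243) and with no filter (0.0622).

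The members did not all share one profile over the 8 libraries. Pearson's r between pairs, on log2(CPM + 1), ran from 0.517 for Gbp3 and Gbp8 to 0.962 for Gbp5 and Gbp8, with Gbp2 and Gbp7 at 0.961. The 8 libraries differ in depth, genotype and time together, so these values are descriptive. Of 9726 other genes with a mean of at least 5 CPM, those most like the mean standardised profile of the members were Nod1 (r = 0.986), Rmdn3 (0.979), Clic5 (0.978), Nlrc5 (0.970), Heatr5b (0.968), Batf2 (0.963), March1 (0.963) and Csrp1 (0.962), over 8 libraries. Nod1, a sensor of bacterial peptidoglycan, stood at 24.0, 24.0, 34.0 and 29.9 CPM in IFNAR;RelB-DBDB, against 12.5, 13.6, 19.1 and 30.9 CPM in RelB-DBDB. Nlrc5, a regulator of MHC class I genes, stood at 229, 237, 255 and 209 CPM in IFNAR;RelB-DBDB, against 104, 99.5, 170 and 323 CPM in RelB-DBDB. Gbp4 came at rank 22 (r = 0.936) and Irf7 stood at 0.139.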

How the data were processed

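Dendritic cell RNA was sequenced as 8 stranded mRNA libraries, 1 per genotype and condition, with single-end reads of 50 bp, as the labels' protocols state. The submitters' processing notes name cutadapt, a trimmer, edgeR, a package for counts, and the build mm10. Which aligner, counter, annotation and versions were used, and whether strand was, is not given in the sources used here. The authors deposited 1 table of signal values that are CPM with 1 added, as tested on the file: the lowest value is 1 and, after subtraction of 1, 100% of values are whole multiples of 1 read within 0.01 read, from which reads were worked back. Of 27178 rows, 2161 without a name (0.0737% to 0.131% of reads) counted in totals only, 11 names occur on more than 1 row, and 16 columns of other samples were not used.

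The 12297 genes that reached 1 CPM in 2 or more libraries were fitted on log2(CPM + 1) of the deposited values, which understates the change of low genes, with limma 3.58.1 (eBayes with trend) in R 4.3.3. The additive model of genotype and condition had 3 residual degrees of freedom, and p-values were adjusted over all tested genes by the Benjamini-Hochberg method at 0.05. Nothing says that libraries came from separate animals, so p-values measure only the spread between these libraries. Fits were tested on simulated counts whose planted effects follow the fitted models, so departures from those models were not tested. Ratios of 2 libraries have exact 95% intervals of 2 Poisson counts, for counting error only. Counts of 2-fold differences use log2(CPM + 1). Alternatives were a pseudocount of 5, no filter, TMM factors, each library left out in turn, another split of the late phase and, chosen after seeing the data, limma-voom.

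The members, lists and tests were chosen with earlier results of these data known. Named were the members, the other GBP genes found, set contrast genes, up to 4 called genes of each list (otherwise the 2 with the largest late-phase value), and the 8 genes most like the members. Pandas 2.3.3, SciPy 1.17.1 and Matplotlib 3.10.9 ran in Python 3.11.15.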

Additional observations from a re-analysis of the deposited data

Results flagged for a closer look

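Gbp9 moved in opposite directions after 8 h of CpG in the 2 genotypes. Its level at 8 h was 0.641 times that of control cells in IFNAR;RelB-DBDB and 5.47 times that of control cells in RelB-DBDB, each from 1 library per condition. The difference between these 2 folds at 8 h alone was not tested. The late-phase test, which takes 3 and 8 h together, gave -1.96 on the log2(CPM + 1) scale (limma adjusted p = 0.639). With a library left out, its value ran from -3.05 to -0.88, with 1 residual degree of freedom in each fit. Leaving out either library of a condition gave the same value, so these are not 8 separate checks.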

How the results depend on the processing

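No paired analysis was possible because each genotype and condition has 1 library, and genotype and condition are already terms of the model. The planned edgeR test on worked-back reads was not run, and limma-voom, chosen after seeing the data, took its place. With no filter the genes called numbered 478 (3 h), 1629 (8 h) and 413 (genotype), against 924, 2654 and 769 with the filter, and limma-voom called 4316 at 8 h. Members called at 8 h were 0 with no filter and 1 with TMM scaling, in place of 2. TMM scaling also shifted the split of calls, to 540 higher and 442 lower for 3 h (448 and 476 before), 1126 and 1192 for 8 h (801 and 1853) and 440 and 333 for genotype (565 and 204). Without it the median of all genes is shifted by -0.156 (CpG 3 h), -0.233 (CpG 8 h) and 0.112 (genotype).

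With each library left out in turn, genes called ran from 5 to 35 for CpG 1 h, 12 to 4313 for 3 h, 336 to 7056 for 8 h, 124 to 2040 for genotype and 69 to 5641 for the late phase. Members called ran from 0 to 0, 0 to 5, 0 to 6, 0 to 6 and 1 to 6 in the same comparisons. Those late-phase fits have 1 residual degree of freedom. Directions turned for Gbp9 without the RelB-DBDB control (CpG 3 h: -0.09, range -0.09 to 1.20) and without the RelB-DBDB library of 8 h (CpG 8 h: -0.49, range -0.49 to 2.27). In the late phase they turned without either 8 h library for Gbp5 (0.01, range -1.81 to 0.01) and Gbp8 (0.08, range -0.42 to 0.08). With an 8 h library left out, the other one is fitted exactly, so the late-phase value then rests on 3 h alone. Of 717 recomputed values of named genes, 489 kept direction and side of the threshold, 150 lost a call, 72 gained one and 6 turned. Low read counts widen the intervals of Gbp5, Gbp11 and Ifnb1, and a lone library per group limits every comparison.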
